A study of Drosophila melanogaster with 8 samples.

Results

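The genes described here are 3 ion channel genes, Shaker (Sh), slowpoke (slo) and Trpm, and 2 genes for subunits of second-messenger signalling, Gbeta5 and Pka-R2. They were picked by name, with their differences between the study's groups already known, and found on the array through the RefSeq accession or cDNA clone that names each probe's target. Each gene was read by 1 named probe, so they are 5 of the 32162 probes on the array. Sh, slo, Trpm and Pka-R2 had 1 spot each per array and Gbeta5 had 2. All 5 probes were well above background on all 8 arrays and passed the filter on dim probes. Levels of different probes are not comparable as amounts of RNA, since each probe binds with its own strength. Every comparison of RNA below is therefore of 1 probe between arrays or of differences.

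RNA came from pools of 20 heads of adult Drosophila melanogaster, males and females together. The activated_31C group was 4 pools from flies held at 31 °C for 1 h just before dissection, and the control_23C group was 4 pools from flies that stayed at 23 °C. Both groups had the genotype w, elav-GAL4/+; UAS-dTrpA1/+, in which the neuronal driver elav-GAL4 turns on dTrpA1, whose channel protein lets cations in when warm and so depolarises the neurons that carry it. No pool was warmed without the channel, so warmth itself cannot be told apart from neural activity. The study searched for genes whose RNA changes with that activity. Each pool was read on its own 1-colour array, and the 4 arrays of a group shared a slide, so that an effect of the slide cannot be told apart from the group either. In RNA from whole heads, fewer cells of a type and less RNA per cell cannot be told apart.

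Neurons set their excitability with channels that work against each other. Potassium channels such as those of Sh and slo let positive charge out and end an action potential, whereas TRP family channels such as Trpm let positive charge in. G proteins carry signals from receptors in the membrane to enzymes and channels, and one of their targets is the enzyme that makes cAMP. cAMP releases protein kinase A (PKA) from its regulatory subunits, and the kinase then phosphorylates many proteins, channels among them.

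Sets of other probes stood far from the rest of their group on some arrays. At more than 2 log2 units below the median of the rest of their group lay 243 of the 22442 tested probes on activated_31C replicate 3, 336 on control_23C replicate 3 and 331 on control_23C replicate 4, against 1 to 144 on each of the other five arrays. As far above it lay 374 probes on control_23C replicate 1 and 341 on control_23C replicate 2, against 19 to 70 on each other array, so in these counts control_23C replicates 1 and 2 stood against replicates 3 and 4. None of the 5 genes was among the probes far below. The counts do not tell which pair of control_23C replicates stood apart. A fit without control_23C replicates 1 and 2 together was not run. Without activated_31C replicate 3 and control_23C replicates 3 and 4 the log2 difference, activated_31C minus control_23C, was 0.72 for Trpm, 0.41 for Pka-R2, −0.36 for Gbeta5, −0.17 for Sh and −0.089 for slo. With all arrays it was 0.64 for Trpm, 0.45 for Pka-R2, −0.35 for Gbeta5, −0.16 for Sh and −0.098 for slo.

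The 5 genes did not go one way. The probes of Trpm and Pka-R2 read higher in activated_31C, those of Sh and Gbeta5 read lower, and that of slo overlapped between the groups. Among the channels 1 of 3 was higher and 2 were lower, with a median log2 difference of −0.098 (activated_31C minus control_23C). Among the signalling subunits 1 of 2 was higher and 1 lower, with a median of 0.053. The median difference over all 22442 probes tested was −0.0090. Since the genes were picked with these differences known, the differences are given as a description, with no test of any gene. In a fit across all probes with limma, 4 of the 5 genes had an adjusted p under 0.05, 2 in each direction, beside 43.4% of all probes tested (19.2% higher and 24.2% lower), and nothing is read from that count. For the same 4 genes the groups did not overlap, beside 43.1% of all probes (19.0% higher and 24.0% lower). Over 20 alternatives of processing, Sh was under 0.05 in 10, Trpm in 20, Gbeta5 and Pka-R2 in 19 each and slo in 1. Over these alternatives the share of all probes tested that passed ran from 24.2% to 45.6%. Nothing is read from these counts either, since the genes were picked with their differences known.

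**Figure D1:**
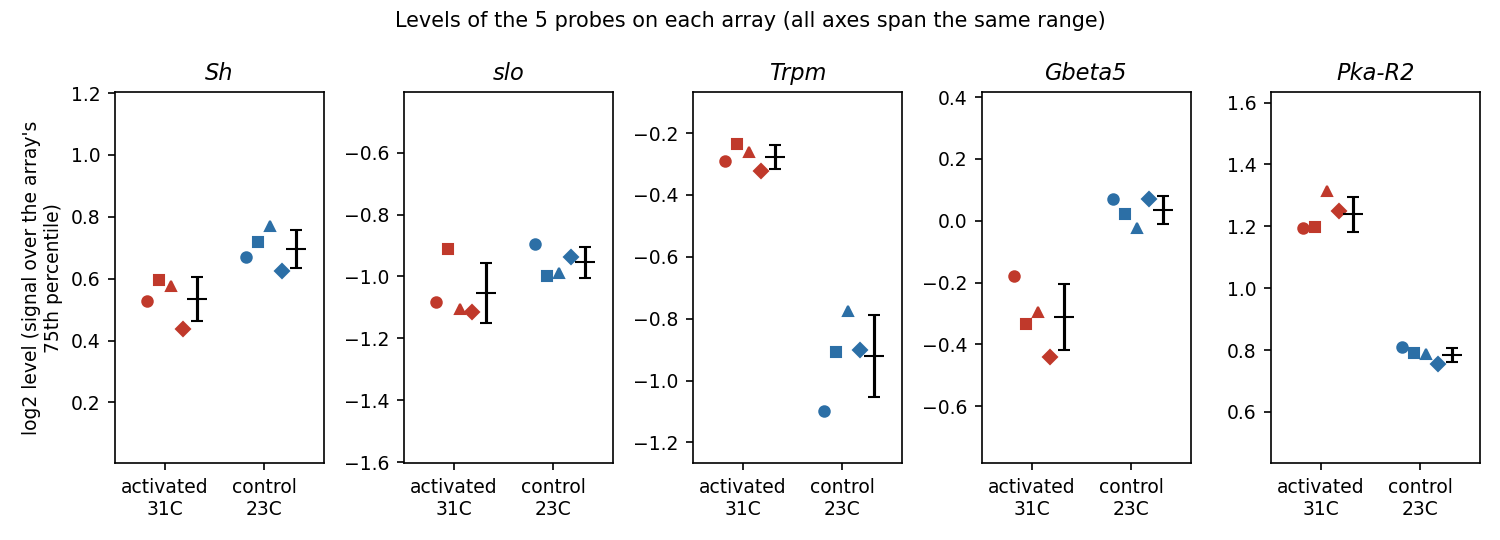
Log2 level of each of the 5 probes (y axis, processed signal over the array's 75th percentile) on the 4 activated_31C arrays (red, left) and the 4 control_23C arrays (blue, right), with marker shapes for replicates 1 to 4 and a black bar for the mean ± SD. Trpm and Pka-R2 lie higher in activated_31C with gaps of 0.45 and 0.38 between the groups, Gbeta5 and Sh lie lower with gaps of 0.15 and 0.028, and slo overlaps.

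Shaker encodes the pore-forming subunit of a fast, voltage-gated potassium channel, and flies that lack it shake their legs under ether. The Sh probe, for the clone GH03046, had log2 levels of 0.53, 0.60, 0.58 and 0.44 on activated_31C arrays 1 to 4, and 0.67, 0.72, 0.77 and 0.62 on control_23C arrays 1 to 4. The lowest pool of each group was replicate 4, and the highest activated_31C pool lay only 0.028 below the lowest control_23C pool. The means were 0.53 ± 0.070 in activated_31C and 0.70 ± 0.062 in control_23C (SD, n = 4 each), a difference of −0.16 (SE 0.052), or a signal 10.6% lower in activated_31C. With any 1 array left out the difference was between −0.18, without control_23C replicate 4, and −0.13, without activated_31C replicate 4. It was −0.30 with spike-in centring, with a wider SE of 0.13, and −0.12 (SE 0.052) with median centring. Sh has 17 RefSeq transcripts, of which the files do not say which the probe reads, and in the gene table it overlaps CG12672, CG15373 and CG6867, so its level is uncertain as to the gene.

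The gene slo encodes a large-conductance potassium channel that opens with calcium and voltage together, and it shapes the end of the action potential in nerve and muscle. Its probe, for the clone GH10751, had log2 levels of −1.08, −0.91, −1.11 and −1.11 on activated_31C arrays 1 to 4, and −0.89, −0.998, −0.99 and −0.94 on control_23C arrays 1 to 4. Activated_31C replicate 2 lay among the controls, and the other three activated_31C pools lay below every control_23C pool. The means were −1.05 ± 0.096 in activated_31C and −0.95 ± 0.049 in control_23C (SD, n = 4 each), a difference of −0.098 (SE 0.058). Without activated_31C replicate 2 the difference was −0.15 (SE 0.045). It was −0.24 (SE 0.12) with spike-in centring, −0.058 (SE 0.062) with median centring and −0.038 (SE 0.064) with normexp background correction. No other gene overlaps slo in the gene table, and it has 23 RefSeq transcripts.

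Trpm encodes a cation channel of the TRP family, known in flies for a part in the balance of metal ions. Its difference was the largest of the 5. The Trpm probe, for the clone GH04950, had log2 levels of −0.29, −0.23, −0.26 and −0.32 on activated_31C arrays 1 to 4, and −1.10, −0.91, −0.78 and −0.90 on control_23C arrays 1 to 4. The activated_31C pools lay within a narrow band, while the control_23C pools were more spread out, with replicate 1 lowest and replicate 3 highest, and the groups were 0.45 apart. The means were −0.28 ± 0.037 in activated_31C and −0.92 ± 0.13 in control_23C (SD, n = 4 each), a difference of 0.64 (SE 0.070), or a 1.56-fold higher signal in activated_31C. With any 1 array left out the difference was between 0.58, without control_23C replicate 1, and 0.69, without control_23C replicate 3. Trpm overlaps ItgaPS4, ND-51L2 and lncRNA:CR44241 in the gene table, so its level is uncertain as to the gene. It has 11 RefSeq transcripts, and which of them the probe reads is not stated.

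Gbeta5 encodes an atypical G protein beta subunit, which in mammals pairs with regulators that shorten G protein signals rather than with a gamma subunit. The Gbeta5 probe, for the accession NM_132224, had log2 levels of −0.18, −0.33, −0.29 and −0.44 on activated_31C arrays 1 to 4, and 0.070, 0.022, −0.024 and 0.072 on control_23C arrays 1 to 4. Here the activated_31C pools were the more spread out, from replicate 1 at the top to replicate 4 at the bottom, and all lay below every control_23C pool. The means were −0.31 ± 0.11 in activated_31C and 0.035 ± 0.046 in control_23C (SD, n = 4 each), a difference of −0.35 (SE 0.061), or a signal 21.4% lower in activated_31C. This was the 1 probe of the 5 with a pair of spots on each array, and the brighter spot exceeded the dimmer by 1.02% to 4.38% on activated_31C arrays and by 0.263% to 7.72% on control_23C arrays. The gene has 1 RefSeq transcript and overlaps no other gene in the table.

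Pka-R2 encodes the type II regulatory subunit of PKA, which holds the catalytic subunits inactive until cAMP binds and which anchoring proteins keep at set places in the cell. The Pka-R2 probe, for the clone GM01761, had log2 levels of 1.19, 1.20, 1.31 and 1.25 on activated_31C arrays 1 to 4, and 0.81, 0.79, 0.79 and 0.76 on control_23C arrays 1 to 4. The control_23C pools were nearly level with each other, and every activated_31C pool lay above them, by 0.38 or more. The means were 1.24 ± 0.056 in activated_31C and 0.78 ± 0.022 in control_23C (SD, n = 4 each), a difference of 0.45 (SE 0.042), or a 1.37-fold higher signal in activated_31C. Pka-R2 overlaps the microRNA gene mir-4967 in the gene table and has 4 RefSeq transcripts. When arrays were centred on spike-in controls the difference was 0.31 (SE 0.11).

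Set side by side, the differences spread within each class more than between the classes. The Trpm difference exceeded the mean of Sh and slo by 0.77 on the log2 scale, and the Pka-R2 difference exceeded that of Gbeta5 by 0.80. The channel class mean was 0.13 and the subunit class mean 0.053. A ratio of 2 probes on the same array does not depend on how arrays are scaled, so a plain rescaling of the arrays leaves both gaps unchanged by construction. Over all 20 alternatives the Trpm gap ran from 0.71, without control_23C replicate 1, to 0.85, without control_23C replicates 3 and 4 and activated_31C replicate 3. The Pka-R2 gap ran from 0.74, with quantile normalization, to 0.86, without activated_31C replicate 1. The median size of the difference, regardless of sign, was 0.35 for the 5 genes and 0.22 for all probes tested, and 85.8% of tested probes had a smaller one than Trpm, 76.1% than Pka-R2, 66.6% than Gbeta5, 38.5% than Sh and 24.3% than slo. The genes were picked with these differences known, so the gaps and sizes only describe them and can be a product of that choice.

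**Figure D2:**
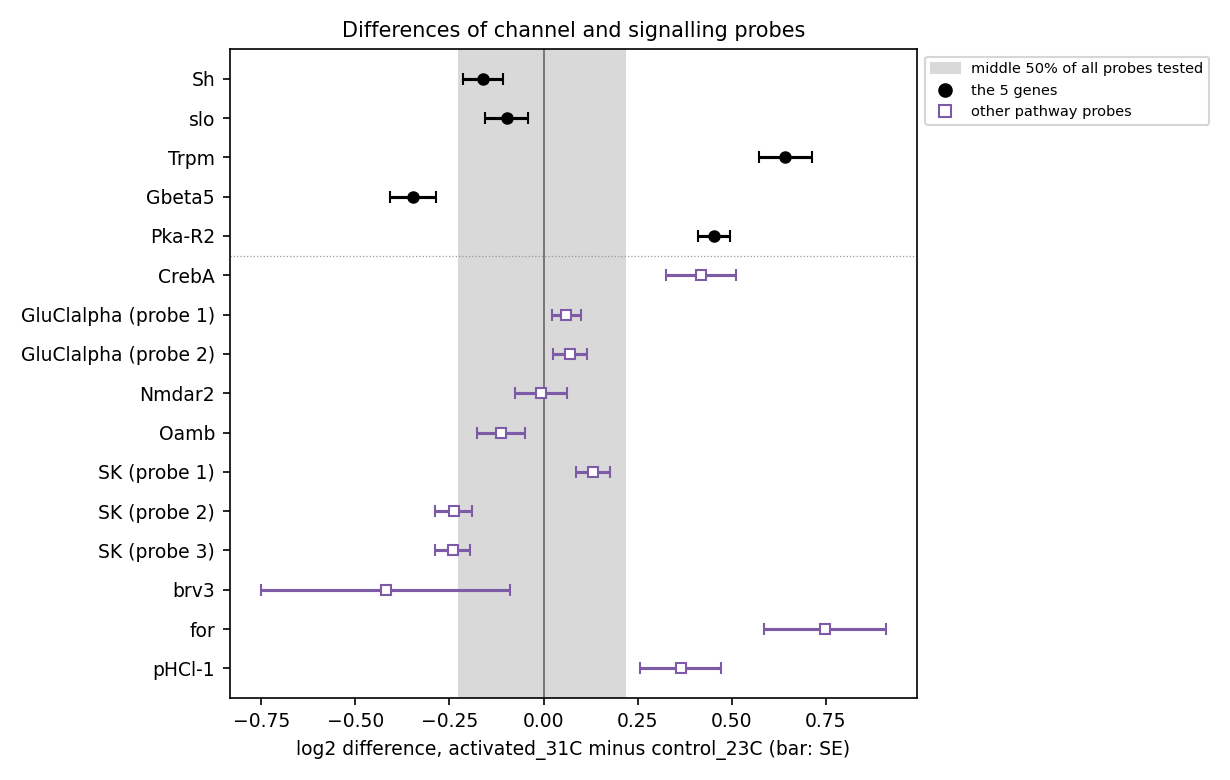
Log2 difference (x axis, activated_31C minus control_23C) with its SE for the 5 probes (black circles) and for the 11 other probes of the pathway lists (open squares), over a grey band that holds the middle 50% of all 22442 probes tested, from −0.23 to 0.22. Trpm, Pka-R2 and Gbeta5 lie outside the band and Sh and slo inside it, and the 3 SK probes lie on both sides of 0.

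The median SD of the 5 genes between pools was 0.070 in activated_31C and 0.049 in control_23C, beside medians of 0.11 in activated_31C and 0.10 in control_23C for all probes tested. Gbeta5 in activated_31C (0.11) and Trpm in control_23C (0.13) varied as much as the median probe of that group or more. No pool was high or low for all 5 genes. In activated_31C the 3 channel genes shared their highest pool, replicate 2, and their lowest, replicate 4, whereas in control_23C their highest and lowest pools were not shared by all 3. In activated_31C replicate 4, for example, Gbeta5 was 0.13 and Sh 0.096 below the group mean, while Pka-R2 was 0.012 above it. In control_23C replicate 3, Trpm was 0.15 and Sh 0.074 above the group mean, while Gbeta5 was 0.059 below.

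**Figure D3:**
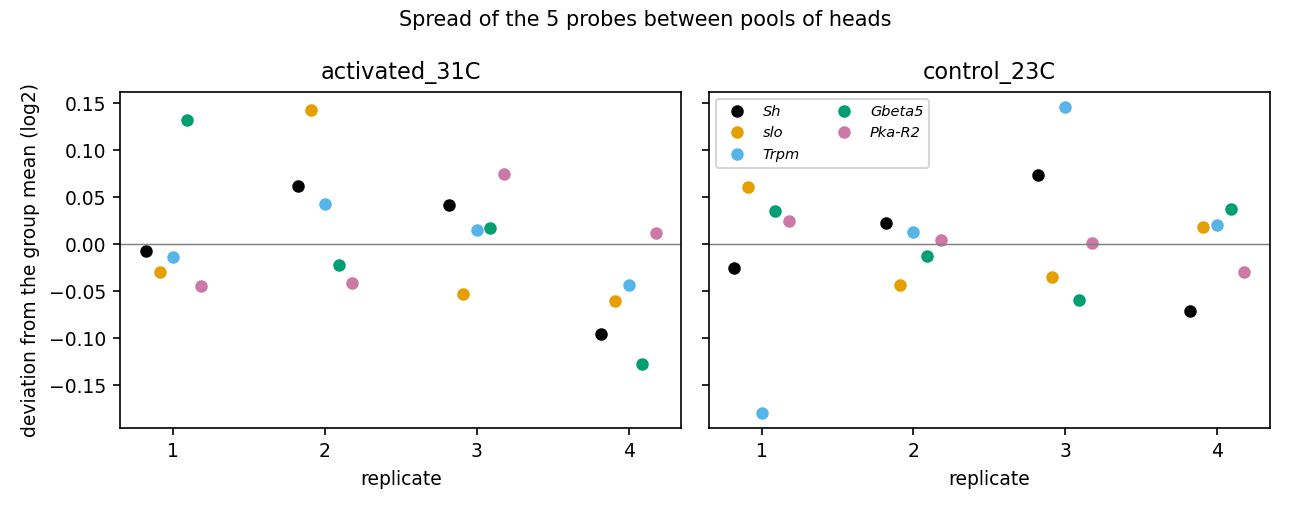
Deviation of each of the 5 probes from its group mean (y axis, log2) by replicate (x axis), for activated_31C (left) and control_23C (right). The widest deviations are those of Trpm in control_23C replicates 1 and 3 (−0.18 and 0.15), slo in activated_31C replicate 2 (0.14) and Gbeta5 in activated_31C replicates 1 and 4 (0.13 and −0.13).

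Markers of cell types in the head could hardly be read, since 1 of 38 had a named probe. None of the 9 neuronal markers had one, so the neuronal content of the pools was not checked. The exception was Cyp4g1, a cytochrome P450 gene best known from oenocytes, which was 1 of the 6 genes of the fat body list. Its log2 levels were −5.40, −5.15, −3.43 and 1.95 on activated_31C arrays 1 to 4, against −7.36, −7.58, −7.34 and −3.85 on control_23C arrays 1 to 4. Replicate 4 was the highest pool of each group, and on control_23C arrays 1 to 3 the probe was not well above background. Without activated_31C replicate 4 the difference was 0.66 for Trpm, 0.45 for Pka-R2, −0.30 for Gbeta5, −0.13 for Sh and −0.078 for slo. Without control_23C replicate 4 it was 0.65 for Trpm, 0.44 for Pka-R2, −0.33 for Gbeta5, −0.18 for Sh and −0.092 for slo. The part of these cells in the differences of the 5 genes was not tested.

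The rest of the pathway could be seen only in small part. Of 222 entries in lists of channel, receptor, G protein, cAMP, cGMP and calcium signalling genes, 13 had a named probe, and 8 of these were not among the 5. With limma and Benjamini-Hochberg adjustment over all probes, 4 of their 11 tested probes passed 0.05 with a higher and 2 with a lower level in activated_31C, and 5 did not pass. Of all probes tested, 43.4% passed, 19.2% with a higher and 24.2% with a lower level, so the count of 6 of 11 is not a result about these lists. Their median log2 difference was 0.061 and the median size 0.24, near that of all probes. The lists of voltage-gated sodium and calcium channels and of calcium and phosphoinositide signalling had no named probe, and Gbeta5 was the 1 named gene of its list of 20 G protein genes.

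Among the other potassium channels, SK alone was named, and its 3 probes disagreed. SK encodes a small-conductance potassium channel opened by calcium alone. Both probes for the clone GM01744 were lower in activated_31C, by −0.24 (SE 0.049, limma adjusted p = 0.0057) and by −0.24 (SE 0.047, adjusted p = 0.0045). Without control_23C replicates 3 and 4 and activated_31C replicate 3 these differences were −0.21 and −0.20 and missed the threshold. The probe for the accession NM_167029 averaged 2.92 ± 0.052 in activated_31C and 2.79 ± 0.051 in control_23C (SD, n = 4 each), a difference of 0.13 (SE 0.045, adjusted p = 0.048). That last call was lost in each of the 8 fits that left out 1 array (differences of 0.11 to 0.15), and its sign turned with quantile normalization (−0.041) and with centring on spike-ins (−0.0068). No direction is therefore given for SK as a gene.

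The transmitter-gated channel genes GluClalpha and Nmdar2 gave no call. GluClalpha, a glutamate-gated chloride channel gene that is the target of the drug ivermectin, had 2 probes with differences of 0.061 (SE 0.039) and 0.070 (SE 0.046). For Nmdar2, an NMDA receptor subunit gene, the difference was −0.0070 (SE 0.069, limma adjusted p = 0.95). The chloride channel gene pHCl-1, whose channel is gated by pH, differed by 0.36 (SE 0.11, limma adjusted p = 0.028), with the higher mean in activated_31C, though its groups overlapped and the call was lost in 9 of 20 alternatives. Its probe was dim, with means of −5.62 in activated_31C and −5.98 in control_23C. The gene overlaps lncRNA:CR44050 and lncRNA:CR44051 in the gene table. The difference was 0.10 with normexp background correction, 0.22 with quantile normalization, 0.23 with spike-in centring and 0.23 without activated_31C replicate 3 and control_23C replicates 3 and 4. The others were the fits without activated_31C replicate 2 (0.30) or 3 (0.34) and without control_23C replicate 1 (0.36), 3 (0.32) or 4 (0.33). The TRP family gene brv3 differed by −0.42 (SE 0.33, adjusted p = 0.35), on pools that ranged from −5.99 to −4.68 in activated_31C and from −5.68 to −4.60 in control_23C. It was −0.23 without activated_31C replicate 4, −0.67 without activated_31C replicate 1 and −0.64 without control_23C replicate 4. In the gene table brv3 overlaps Seipin, Nmdar2 overlaps inc, and GluClalpha overlaps Acsx1L and lncRNA:CR43488.

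On the signalling side, 1 probe of the transcription factor gene CrebA and the probe of a dim kinase gene read higher in activated_31C. The cGMP-dependent protein kinase gene for, known for its part in foraging behaviour, averaged −5.45 ± 0.14 in activated_31C and −6.20 ± 0.33 in control_23C (SD, n = 4 each), a difference of 0.75 (SE 0.16, limma adjusted p = 0.0073). It was well above background on 4 activated_31C arrays but on 3 control_23C arrays, so it entered the test only through the group where it is high, and no change is drawn from its call. It also overlaps mir-4972 in the gene table, and with normexp background correction its difference was 0.25 and missed the threshold. CrebA, a gene of the CREB family of transcription factors that stood in the cAMP list beside Pka-R2, averaged −1.36 ± 0.063 in activated_31C and −1.78 ± 0.19 in control_23C (SD, n = 4 each). Its difference was 0.42 (SE 0.093, limma adjusted p = 0.0079), and its second probe was too dim to be tested. With spike-in centring CrebA missed the threshold (0.28), and without control_23C replicate 4 its difference was 0.33. The octopamine receptor gene Oamb, whose receptor couples to G proteins, differed by −0.11 (SE 0.064, adjusted p = 0.20).

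Among the 311 named probes measured on all 8 arrays, those whose levels most resembled each gene's are given as a description. The arrays share the difference between the groups, which enters each likeness. The probes were taken for the highest r on 8 arrays, so a high r is partly a product of that choice. This holds for the r within the groups too, most of all where the groups differ little. For Sh they were PlexA (r = 0.96), Gbp3 (0.96) and Cpr60D (0.93) over the 8 arrays. Within the groups, as deviations from the group means, their r with Sh was 0.92, 0.90 and 0.84. For Trpm they were CG4681 (0.99), ATPsynbeta (0.98), which encodes the catalytic beta subunit of mitochondrial ATP synthase, and rgr (0.98), with 0.75, 0.71 and 0.77 within the groups. For Gbeta5 they were atos (0.98), CG7772 (0.96) and pcm (0.95), the last encoding a cytoplasmic 5′-3′ exoribonuclease, with 0.86, 0.66 and 0.63 within the groups. For slo, whose groups overlap, they were Polr2J (0.85), mRpL40 (0.83) and CG11125 (0.81), with 0.76, 0.77 and 0.89 within the groups. For Pka-R2 they were Usp47 (0.99), CG7387 (0.99) and lncRNA:alphagamma-element:CR32865 (0.99), with only 0.42, 0.70 and 0.18 within the groups. CG7387 was dim, with means of −6.13 in activated_31C and −8.86 in control_23C. As signal, not as an amount of RNA, the latter lay below the control_23C levels, −7.34 to −7.58, at which Cyp4g1 was not well above background. The r of CG7387 may thus rest partly on values near the floor. CG4681, named for Trpm, was also dim in control_23C, with a mean of −6.38.

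**Figure D4:**
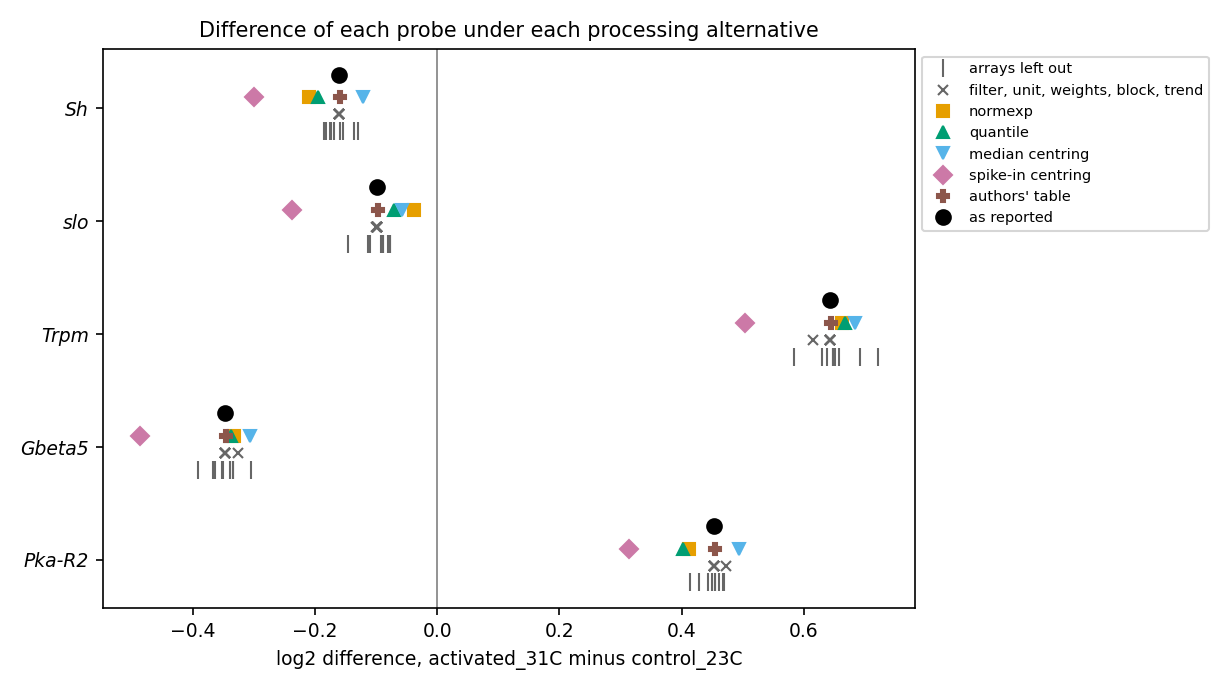
Log2 difference (x axis, activated_31C minus control_23C) of each of the 5 probes as reported and under each processing alternative, with grey ticks for fits that leave out arrays. Every value of a gene lies on the same side of 0, from 0.50 to 0.72 for Trpm, 0.31 to 0.49 for Pka-R2, −0.49 to −0.30 for Gbeta5, −0.30 to −0.12 for Sh and −0.24 to −0.038 for slo. The filter, unit, block and trend fits repeat the reported difference by construction.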

How the data were processed

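RNA from 8 pools of heads was read on 1-colour Agilent arrays, and the labels put 4 pools in each group. The deposited scanner files hold the processed intensity of each spot. Their headers name Feature Extraction 10.7.3.1, and version 9.1.3.1 is named in the submitters' processing notes. The table of values that the authors deposited has a log2 scale and column medians near 0 (−0.062 to 0.038), and how it was made is not stated in the labels. Its deviations tracked those of the scanner values (r of 0.982 to 0.989 over probes). Control spots and 1108 spots with an outlier flag were left out. The signal was put on a log2 scale, spots of the same probe were averaged, and the array's 75th percentile (4602 to 5356 intensity units) was subtracted. A probe was tested when well above background on all 4 arrays of a group and measured on at least 6 arrays (22442 of 32162). Between 22003 and 24402 probes were well above background on an array.

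Probes were named through a RefSeq gene table of Release 6, by unversioned accession, cDNA clone or synonym. It gave 416 probes 1 gene, 2 probes several and 31744 none, so other probes of a gene can lie among the unnamed ones. Probe sequences were not used here. The test between the groups was that of limma 3.58.1, run in R 4.3.3 (lmFit and plain eBayes, two-sided, Benjamini-Hochberg over all probes tested, threshold 0.05), with SE the moderated standard error. The steps were also run on simulated data with independent noise for each probe. Such data lack the sets of probes that stood apart on some arrays here, so nothing about these results is drawn from that run.

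The 5 genes and all lists were chosen with earlier results of these data known. The text names the 5 genes, from each list up to 3 tested genes with the largest difference, the 3 named genes most like each of the 5 and the genes that overlap them. The alternatives were normexp (offset 50, on median spot signals), quantile normalization, centring on 7 spike-in probes or on the median over probes above background on all 8 arrays, the authors' table, 2 other filters, 1 probe per target, array weights, an intensity trend, the replicate number as a block and arrays left out.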

Additional observations from a re-analysis of the deposited data

Results flagged for a closer look

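In 6 of 64 groups of 4 arrays, the gap between 1 array and its nearest neighbour took up an outlying share of the group's whole range, where chance at 1 in 20 gives 3.2. Among the 5 genes this was so for slo in activated_31C, where the gap from replicate 2, the highest at −0.91, to the next pool at −1.08 was 0.847 of the range. Of the other pathway genes, the SK probe A_09_P090180 had a share of 0.974, set by a low control_23C replicate 2 (0.31). CrebA had a share of 0.863, set by a high activated_31C replicate 1 (−1.26). The share was 0.934 for Cyp4g1, whose control_23C replicate 4 stood at −3.85. Of the genes named for their likeness to Trpm, ATPsynbeta had a share of 0.844 through activated_31C replicate 1 (0.19) and CG4681 one of 0.919 through control_23C replicate 1 (−6.77).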

How the results depend on the processing

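All 5 genes kept the sign of their difference in each of 20 alternatives, but many of these could not have turned it. The other filters, 1 probe per target, the intensity trend and the replicate block leave a probe's difference unchanged by construction. The authors' table barely moved it. Centring on spike-in controls moved the median of all probes by −0.14 and the median difference of the 5 genes to −0.24. In that fit 2 of the 5 genes (Trpm and Gbeta5) and 3 of the 11 other pathway probes passed the threshold. Of all probes tested 29.5% passed, against 43.4% as reported, with 1889 probes higher. Without control_23C replicates 3 and 4 and activated_31C replicate 3, 5434 probes passed (24.2% of those tested), 2735 higher and 2699 lower. Among them were 2 of the 5 genes (Trpm and Pka-R2) and 2 pathway probes. With normexp 3 pathway probes passed, beside 32.5% of all probes tested. Of the calls, 44.2% were higher as reported, 34.1% with quantile normalization, 28.6% with spike-ins and 52.2% with median centring. The replicate numbers share only a number (r of same-numbered deviations −0.28 to 0.65). With the replicate block 8787 probes passed (39.2%), with the same 4 of the 5 genes as reported, and the SK probe for NM_167029 missed the threshold. With 1 array left out 8426 to 9385 probes passed (37.5% to 41.8%), 3668 to 4023 higher and 4519 to 5362 lower. In those fits 3 to 5 of the 5 genes and 4 to 5 pathway probes passed. Signs turned for GluClalpha (−0.059 and −0.029 with quantile normalization, −0.078 and −0.069 with spike-in centring), for SK as given above (−0.041 and −0.0068) and for Nmdar2 (0.033 with median centring, 0.050 without those 3 arrays, −0.047 to 0.048 with 1 left out). Oamb passed with quantile normalization (−0.19). The cause of these shifts was not tested. The number of arrays, 4 per group, limits the precision, and each of the 5 probes read at least 16.2 times its local background.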

Other observations

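The disagreement of the SK probes was examined after their values were seen, so what follows is a description of a pattern found in these arrays. On each array the log2 ratio of the NM_167029 probe to the mean of both GM01744 probes was taken, which does not depend on how arrays are scaled. It was 3.11 ± 0.011 in activated_31C and 2.73 ± 0.034 in control_23C (SD, n = 4 each), a difference of 0.37, with all activated_31C arrays above all control_23C arrays. No test is given, since the ratio was built after the probes were seen to disagree. SK has 14 RefSeq transcripts, and which of them each probe reads was not analysed here, nor was the cause of the disagreement tested.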
